A study of Mus musculus with 15 samples.

Results

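A set of 9 genes of major histocompatibility complex (MHC) class I presentation and the interferon response, of 55291 genes in the expression tables, was followed in a pancreatic ductal adenocarcinoma (PDAC) line whose glutamine (Gln) use was blocked in culture or in tumors. They were chosen by name and not by their values: H2-K1, H2-D1, B2m, Tap1, Nlrc5, Cd274, Irf1, Irf7 and Ifit1. HY19636 cells, which the labels give as mutant for p53, came from a tumor of a B6 mouse with 1 floxed p53 allele and Ptf1a-Cre, a Cre driven by a pancreatic lineage gene. The 15 RNA-seq libraries formed 5 groups of 3. Cells received 6-diazo-5-oxo-L-norleucine (DON, a broad Gln antagonist) at 25 µM for 24 h, were kept without Gln for 24 h, or served as controls. The same line was grown as orthotopic tumors in the pancreas of female C57BL/6J mice of 8 to 10 weeks, which have an intact immune system. The mice received vehicle or 3 mg/kg DRP-104, a prodrug of DON, daily in 2 cycles, each with 5 days of dosing and 2 days of rest. Tumors were collected on day 21 after transplantation. All groups therefore share 1 line, its alleles and its genetic background, and the tumor RNA also holds RNA of host cells.

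MHC class I molecules display peptides from inside the cell to CD8+ T cells. A heavy chain, such as the products of H2-K1 and H2-D1, pairs with beta-2 microglobulin (B2m) and is loaded with peptides that the Tap1/Tap2 transporter carries into the endoplasmic reticulum. Interferon gamma raises these genes through IRF1 and the transactivator NLRC5, and type I interferons raise effectors such as Ifit1, partly through IRF7, while Cd274 encodes PD-L1, an interferon-responsive ligand that restrains T cells.

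Coordinates are those given with the FPKM values, of which 72.2% of 34490 genes have the exact position of GRCm38. Among the members 7 do, and H2-K1 and Nlrc5 share only one end with that annotation. H2-K1 (ENSMUSG00000061232) lies on chromosome 17 from 33996017 to 34000333 on the minus strand, H2-D1 on chromosome 17 from 35262730 to 35267499, and Tap1 on chromosome 17 from 34187553 to 34197225, all inside the MHC. B2m lies on chromosome 2 from 122147686 to 122153083, Nlrc5 on chromosome 8 from 94472763 to 94527272, and Cd274 on chromosome 19 from 29367455 to 29388095. Irf1 lies on chromosome 11 from 53770014 to 53778374, Irf7 on chromosome 7 from 141262706 to 141266481 on the minus strand, and Ifit1 on chromosome 19 from 34640871 to 34650009.

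The sequences before the transcription start show which interferon-type elements the members have in common, and the heavy chains are printed first because they later part in their response. RefSeq (GRCm38.p6) gave a promoter for 8 of the 9 genes. The 250 bases before the start were searched on both strands for AANNGAAA (the core letters bound by interferon regulatory factors, IRFs), TTCNNNGAA (the GAS element, for interferon gamma-activated site), GGGNNTTCC (an NF-kB-like site) and TGATGNAAT (an element of the amino acid response). Matches are in capitals, and each sequence reads 5′ to 3′ along the gene. The windows are chr17:34000348-34000597 (minus strand) for H2-K1, chr17:35262844-35263093 for H2-D1, chr2:122147437-122147686 for B2m, chr19:29367188-29367437 for Cd274, chr11:53769764-53770013 for Irf1 and chr19:34640639-34640888 for Ifit1.
H2-K1: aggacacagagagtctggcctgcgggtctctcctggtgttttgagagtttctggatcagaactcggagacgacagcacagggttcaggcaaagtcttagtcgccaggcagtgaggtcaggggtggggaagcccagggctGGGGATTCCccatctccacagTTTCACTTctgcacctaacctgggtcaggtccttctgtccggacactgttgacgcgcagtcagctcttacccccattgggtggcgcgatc
H2-D1: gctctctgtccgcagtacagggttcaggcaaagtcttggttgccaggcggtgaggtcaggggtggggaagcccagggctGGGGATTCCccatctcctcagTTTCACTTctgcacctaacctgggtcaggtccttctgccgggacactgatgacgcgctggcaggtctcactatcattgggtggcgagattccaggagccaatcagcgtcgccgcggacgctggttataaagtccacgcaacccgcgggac
B2m: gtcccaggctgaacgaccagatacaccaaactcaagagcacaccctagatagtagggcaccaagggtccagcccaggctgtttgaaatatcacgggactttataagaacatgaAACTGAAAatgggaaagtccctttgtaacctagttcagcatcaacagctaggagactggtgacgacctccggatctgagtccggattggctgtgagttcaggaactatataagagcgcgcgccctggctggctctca
Cd274: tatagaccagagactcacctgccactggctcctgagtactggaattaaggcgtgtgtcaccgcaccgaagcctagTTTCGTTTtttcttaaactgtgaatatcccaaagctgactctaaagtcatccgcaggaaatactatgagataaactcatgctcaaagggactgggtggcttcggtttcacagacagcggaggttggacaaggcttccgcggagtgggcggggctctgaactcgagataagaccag
Irf1: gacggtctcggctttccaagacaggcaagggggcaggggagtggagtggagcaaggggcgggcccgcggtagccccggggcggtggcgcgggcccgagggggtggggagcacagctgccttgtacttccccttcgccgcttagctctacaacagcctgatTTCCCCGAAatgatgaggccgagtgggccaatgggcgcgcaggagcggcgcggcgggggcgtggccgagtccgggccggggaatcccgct
Ifit1: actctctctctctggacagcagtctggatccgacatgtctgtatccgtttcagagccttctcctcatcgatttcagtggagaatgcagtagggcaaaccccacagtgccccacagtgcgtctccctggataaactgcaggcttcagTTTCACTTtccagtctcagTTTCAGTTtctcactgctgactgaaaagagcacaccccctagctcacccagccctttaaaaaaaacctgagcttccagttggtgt

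H2-K1 and H2-D1 held the same pair of matches, GGGGATTCC and, closer to the start, TTTCACTT, which is the IRF core on the opposite strand. B2m, Cd274 and Ifit1 held the IRF core, Ifit1 in 2 copies, and Irf1 held the GAS match TTCCCCGAA from 90 to 82 bases before its start. The IRF core was in a promoter of 5 of the 8 genes and in 21.3% of all 32851 promoters of that length. H2-K1 and Irf1 had 2 promoters each, of which the first is printed. A gene was counted when any of its promoters matched, whereas the shares are over single promoters. The GAS letters were in 1 of 8 genes and in 7.02% of all promoters, the NF-kB-like letters in 2 of 8 and in 4.98%, and the amino acid response letters in 0 of 8 and in 0.816%. In Tap1 and Irf7 none of these letters were found in this window.

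Values are the authors' normalized counts, in which each gene's reads are divided by 1 size factor per library, and the DON and Gln-free tables hold the same 3 control libraries under 2 scalings. Depth was 27.1 to 48.2 M reads in the control cells, 25.2 to 35.4 M in the DON cells, 28.2 to 28.9 M in the Gln-free cells, 19.7 to 20.7 M in vehicle tumors and 16.3 to 18.5 M in DRP-104 tumors. The leukocyte markers Ptprc, Laptm5, Coro1a and Cd52 summed to 1.68 to 35.2 in the 9 culture libraries and to 813 to 3774 in the 6 tumors, and Cd52 was at 0 in every culture. DRP-104 tumor 3 stood apart from the other 5 tumors in these genes, and tumor results are given with and without it. Differences were tested with limma on log2(value + 1) among genes with a mean of at least 10, and a gene was called when its Benjamini-Hochberg adjusted p-value over all genes tested was under 0.05. The labels do not state whether replicate libraries came from separate cultures, so culture p-values measure the spread between libraries, which may be technical.

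The levels of the 9 genes differed widely in the untreated cells. Corrected for gene length, as TPM (the length-corrected share of the library's transcripts; mean ± SD, n = 3), control cells held B2m at 241 ± 23.7, H2-K1 at 151 ± 2.72, H2-D1 at 124 ± 9.20 and Irf1 at 30.3 ± 2.74. Neighbors in this order did not overlap. Cd274 was at 1.45 ± 0.414 TPM and Irf7 at 1.01 ± 0.0485 TPM, also without overlap. Ifit1 (0.103 ± 0.178), Tap1 (0.0589 ± 0.0232) and Nlrc5 (0.0457 ± 0.00336 TPM) were near the bottom and their ranges overlapped. The line thus expressed the heavy chains and B2m while the transporter subunit and the class I transactivator were close to the level of single reads.

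DON at 25 µM for 24 h was compared with control cells to see how a block of Gln-using enzymes changes these genes. DON lowered Irf1, Cd274 and both classical heavy chains, and raised B2m slightly. Of the 6 members tested, 4 were called lower and 1 higher, where 34.7% of all 13556 genes tested were called lower and 33.3% higher. A member called lower is therefore common in this comparison, and the sizes carry the description. Tap1, Nlrc5 and Ifit1 were under the filter.

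The heavy chain genes fell together. H2-K1 was at 2642, 3005 and 2978 normalized counts in the DON libraries and at 4422, 4220 and 3723 in the controls (log2 fold change -0.52, 95% interval -0.73 to -0.31, adjusted p = 0.000283). H2-D1 was at 2253, 2423 and 2442 against 4082, 4156 and 3218 (-0.68, interval -0.91 to -0.45, adjusted p = 6.38e-05). All DON libraries lay below all controls for both genes. B2m, their light chain, was at 3794, 3417 and 3673 with DON and at 2856, 3388 and 2807 in controls (0.27, interval 0.06 to 0.48, adjusted p = 0.0239). The lowest DON library exceeded the highest control by only a small margin, and the B2m call was lost without DON library 1, DON library 3 or control library 1.

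Irf1, the transcription factor that interferon gamma induces, showed the largest drop of the 6 members tested. It was at 236, 191 and 226 with DON and at 921, 1067 and 848 in controls (log2 fold change -2.11, interval -2.41 to -1.81, adjusted p = 1.07e-08). Cd274 was at 25.1, 44.3 and 19.3 with DON and at 78.0, 57.5 and 91.6 in controls (-1.38, interval -2.13 to -0.64, adjusted p = 0.00276). For both genes every DON library lay below every control. Irf7, the type I interferon amplifier, was at 43.0, 36.9 and 31.9 against 35.2, 35.0 and 28.6, and was not called (0.17, interval -0.51 to 0.85, adjusted p = 0.648).

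The remaining members were rare. Tap1 was at 0 in all 3 DON libraries and at 2.52, 5 and 2.60 in controls. Nlrc5 was at 11.9, 14.8 and 0 with DON and at 5.03, 5 and 3.90 in controls, and Ifit1 at 4.77, 3.69 and 0 against 12.6, 0 and 0. These values correspond to a few reads per library. When no filter was set, limma called Tap1 lower (-2.08, adjusted p = 0.0118), while Nlrc5 (0.07, adjusted p = 0.956) and Ifit1 (0.33, adjusted p = 0.801) were not called.

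**Figure D1:**
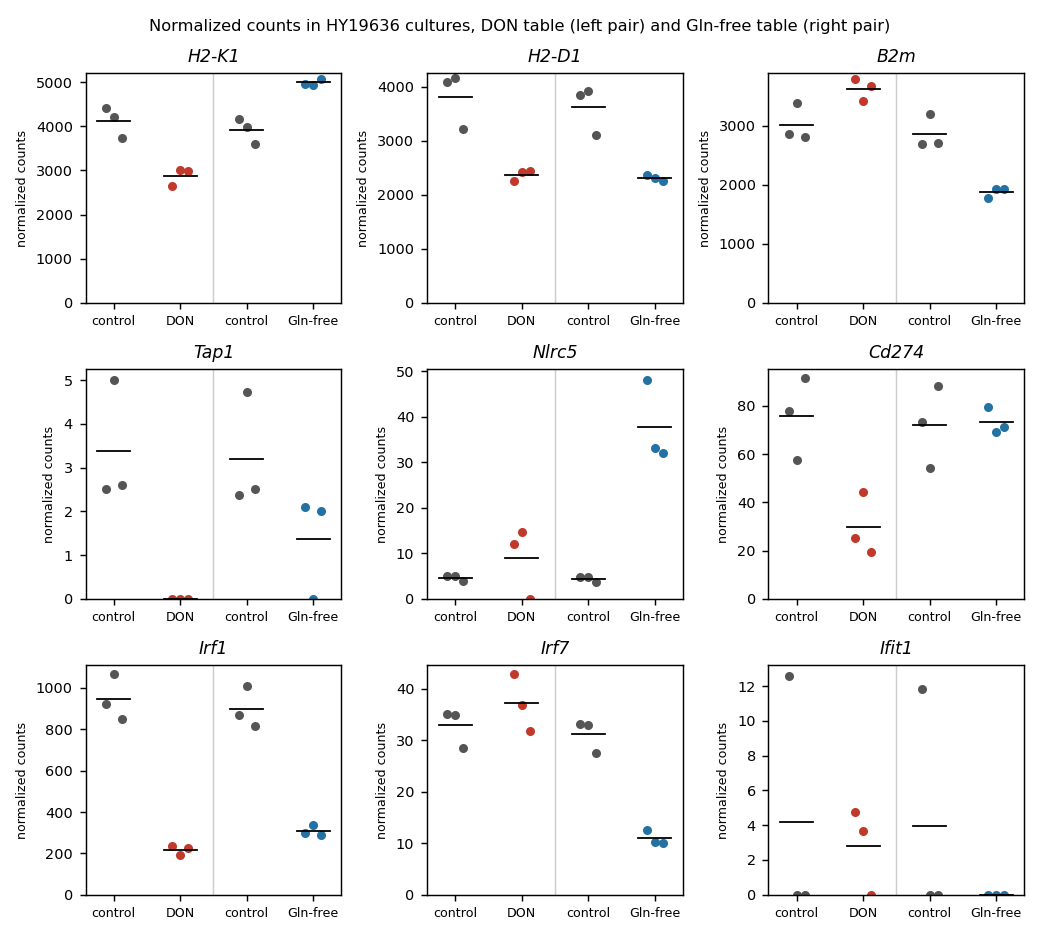
Normalized counts of the 9 genes in each culture library, with the DON table on the left of each panel and the Gln-free table on the right, both with the same 3 control libraries. Points are libraries and black lines are means. H2-K1 lay below its controls with DON and above them without Gln, while H2-D1 and Irf1 lay below in both.

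Withdrawal of Gln for 24 h was compared with the same control cells to ask whether loss of the nutrient changes the genes as the antagonist does. H2-D1 and Irf1 again fell, but H2-K1 rose and B2m and Irf7 fell. Of 7 members tested, 4 were called lower and 2 higher, beside 34.9% and 34.5% of all 13390 genes tested. Tap1 and Ifit1 were under the filter. Nlrc5, 1 of the 2 called higher, passed it only through the Gln-free libraries, so its direction was given by the filter.

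The heavy chain genes parted. H2-K1 was at 4963, 4940 and 5079 without Gln and at 4167, 3986 and 3591 in controls (log2 fold change 0.35, interval 0.17 to 0.53, adjusted p = 0.00205). H2-D1 was at 2370, 2312 and 2259 against 3847, 3926 and 3103 (-0.64, interval -0.86 to -0.43, adjusted p = 7.95e-05). The Gln-free libraries were thus all above the controls for one heavy chain and all below them for the other. B2m was at 1782, 1937 and 1924 against 2692, 3200 and 2707 (-0.60, interval -0.81 to -0.40, adjusted p = 8.37e-05), with no overlap. Of the 100-base windows of the H2-K1 transcripts 0.957% were found unchanged in other genes, and of those of H2-D1 3.59%. How reads of such class I genes were counted is not given in the sources used here, and the part of shared reads in these values was not tested.

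Among the regulators, Irf1 was at 300, 336 and 288 without Gln and at 868, 1007 and 817 in controls (log2 fold change -1.54, interval -1.81 to -1.27, adjusted p = 2.44e-07). Irf7 was at 12.5, 10.3 and 10.0 against 33.2, 33.0 and 27.6 (-1.43, interval -2.26 to -0.60, adjusted p = 0.00475). Both lay below every control, though Irf7 rested on 10 to 12 reads per Gln-free library. Nlrc5, which drives class I transcription, was at 48.0, 33.0 and 32.0 against 4.74, 4.72 and 3.76, a log2 fold change of 2.82 that is given as a description because of the filter. Cd274 was at 79.4, 69.2 and 71.1 inside the control values of 73.5, 54.3 and 88.3, and was not called (0.05, interval -0.48 to 0.58, adjusted p = 0.871). Tap1 was at 2.09, 0 and 2.00 against 2.37, 4.72 and 2.51, and Ifit1 at 0 in all Gln-free libraries against 11.9, 0 and 0.

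Because these comparisons share their controls, DON and Gln-free cells were also compared directly, after all 9 culture libraries were put on 1 scale from their recovered reads. Of 7 members tested, 4 were lower with DON and 2 were higher, beside 32.3% and 31% of 13514 genes. H2-K1 (log2 fold change -0.84, interval -1.01 to -0.67, adjusted p = 3.09e-07) and Cd274 (-1.40, interval -2.06 to -0.74, adjusted p = 0.000999) were lower with DON. B2m (0.91, interval 0.72 to 1.09, adjusted p = 2.67e-07) and Irf7 (1.64, interval 0.91 to 2.36, adjusted p = 0.00059) were higher. Irf1 was lower with DON (-0.54, interval -0.82 to -0.26, adjusted p = 0.00205), so its drop was deeper than without Gln. Nlrc5, 1 of the 4 lower with DON, again passed the filter only through the Gln-free libraries. Its value of -2.72 is a description, and became -1.45 without DON library 3, which had no reads of it. H2-D1 differed by -0.01, with an interval of -0.20 to 0.19. In TPM, B2m was above H2-K1 with DON (306 ± 18 against 111 ± 9.38) and below it without Gln (180 ± 8.62 against 219 ± 3.14), in both cases without overlap.

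**Figure D2:**
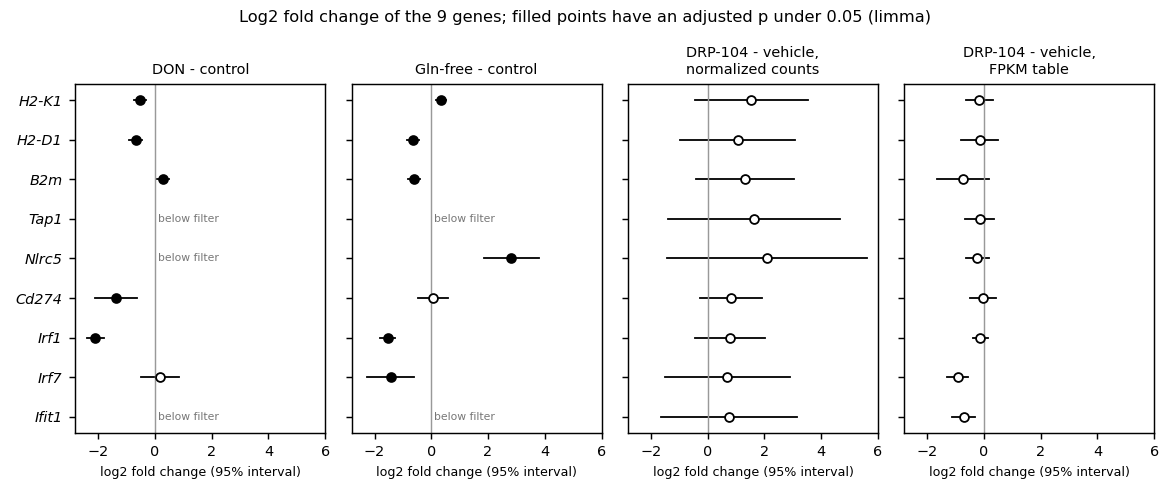
Log2 fold change of each gene with its 95% interval in 4 comparisons, DON and Gln-free cells against controls and DRP-104 against vehicle tumors in the normalized counts and in the FPKM table. Filled points were called, and Nlrc5 without Gln passed the filter only through the Gln-free libraries. H2-K1 has opposite signs in the culture panels, and no point is filled in the tumor panels, where the estimates are above 0 in the normalized counts and below 0 in the FPKM table.

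The wider class I machinery was read from gene lists that include the members, with changes given as log2 fold changes. The counts of each list stand beside the shares over all genes, 33.3% higher and 34.7% lower with DON and 34.5% and 34.9% without Gln, and counts near these shares say little about a list. Of 14 MHC class I heavy chain genes, 6 were tested in each culture comparison. H2-T22, a nonclassical chain recognized by some gamma delta T cells, rose with DON (log2 fold change 1.14, adjusted p = 1.50e-07) and fell without Gln (-1.17, adjusted p = 3.34e-07), the reverse of H2-K1. H2-T23, which encodes Qa-1, fell in both (-0.73 with DON and -1.22 without Gln, adjusted p = 5.35e-05 and 6.20e-07), while H2-T24 rose in both (0.91 and 1.98, adjusted p = 0.000389 and 2.14e-07). The list median was 0.20 with DON and -0.14 without Gln, beside 0.02 and 0.0059 for all genes.

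Of 10 tested genes of peptide supply and loading, 3 were called higher and 4 lower with DON, and 4 higher and 5 lower without Gln. Tapbp (tapasin, which holds the heavy chain at the transporter) fell by 1.31 with DON and by 1.55 without Gln (adjusted p = 1.21e-07 and 8.21e-08). The proteasome activator subunit gene Psme1 fell by 1.58 and 1.99 (adjusted p = 1.57e-07 and 2.41e-08). Tapbpl, a tapasin-related editor, rose by 1.14 without Gln (adjusted p = 5.28e-05). The medians of this list were -0.12 and -0.06.

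Upstream of these genes, among 10 interferon receptor and signalling genes, 5 were called lower and 3 higher with DON, and 6 lower and 1 higher without Gln (medians -0.26 and -0.37). Ifngr1, the ligand-binding chain of the interferon gamma receptor, fell by 1.91 with DON and by 1.22 without Gln (adjusted p = 7.54e-10 and 1.47e-07). Ifngr2 and the kinase Jak2 fell with DON by 1.39 and 1.54 (adjusted p = 2.21e-08 and 5.73e-08), and Stat2 fell without Gln by 1.96 (adjusted p = 9.39e-08). Of the interferon brakes, Socs1 and Socs3 fell with DON by 1.77 and 1.41 (adjusted p = 3.02e-06 and 2.41e-08), and the phosphatase gene Ptpn2 rose in both (0.80 and 1.22, adjusted p = 7.96e-05 and 2.23e-06). Both receptor chains thus fell with DON together with 2 genes of negative feedback.

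Nucleic acid sensors were counted in the same way. Of 10 tested with DON, 7 were called lower and 2 higher (median -0.92), and of 11 tested without Gln, 4 lower and 3 higher (median -0.15), where 2 of the 11 passed the filter through 1 group alone. The difference between the treatments was not tested for the list. Cgas, the cytosolic DNA sensor, fell with DON (log2 fold change -1.12, adjusted p = 0.000612) and rose without Gln (1.48, adjusted p = 1.65e-05), and the direct contrast gave -2.57 (interval -2.99 to -2.15, adjusted p = 2.84e-08). Ddx58, which encodes the RNA sensor RIG-I, rose without Gln (1.37, adjusted p = 3.18e-06), whereas Ifih1, which encodes MDA5, fell (-1.38, adjusted p = 0.000131). With DON the double-stranded RNA receptor Tlr3 fell by 1.66 (adjusted p = 2.75e-05) and the kinase gene Eif2ak2 by 1.33 (adjusted p = 8.77e-06).

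Most of the interferon-stimulated effectors that were tested were called lower in both treatments. Of 32 genes, 15 were tested in each comparison. With DON 12 were called lower and 2 higher (median log2 fold change -1.91), and without Gln 10 were lower and 2 higher (median -1.32). Through the control libraries alone, 3 of the 15 passed the filter in the DON comparison and 1 in the Gln-free comparison, all called lower, and over the others 9 of 12 and 9 of 14 were lower. Samd9l, an antiviral effector, fell by 2.59 with DON and 1.55 without Gln (adjusted p = 5.44e-07 and 1.60e-05). Lgals3bp fell by 1.91 and 3.04 (adjusted p = 5.39e-09 and 4.25e-10). Dtx3l, a ubiquitin ligase partner of Parp9, fell with DON by 2.07 (adjusted p = 4.03e-07), and Bst2 (tetherin) fell without Gln by 1.41 (adjusted p = 2.00e-06). The 2 genes called higher with DON, Xaf1 (1.43) and Ifi35 (0.78), were named after their values were seen. No gene of the interferon list reached the filter in any culture comparison.

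Cd274 was one of 11 checkpoint ligands, of which 7 were tested. With DON 6 were called lower and 1 higher (median -1.68), and without Gln 3 lower and 2 higher (median -0.03). Lgals9, which encodes galectin-9, fell by 3.37 with DON and 3.13 without Gln (adjusted p = 4.98e-11 and 1.43e-10). Vtcn1, which encodes B7-H4, fell with DON by 3.54 (adjusted p = 1.18e-06), and its value without Gln, -5.50, is a description because it passed the filter there only through the controls. Cd276, which encodes B7-H3, fell with DON by 1.81 (adjusted p = 7.86e-09), and Nectin2 fell without Gln by 2.08 (adjusted p = 2.10e-08). The 1 ligand called higher with DON was Pvr (1.05), named after its values were seen. Cd274 thus moved with most of its list under DON and lay between the extremes without Gln.

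**Figure D3:**
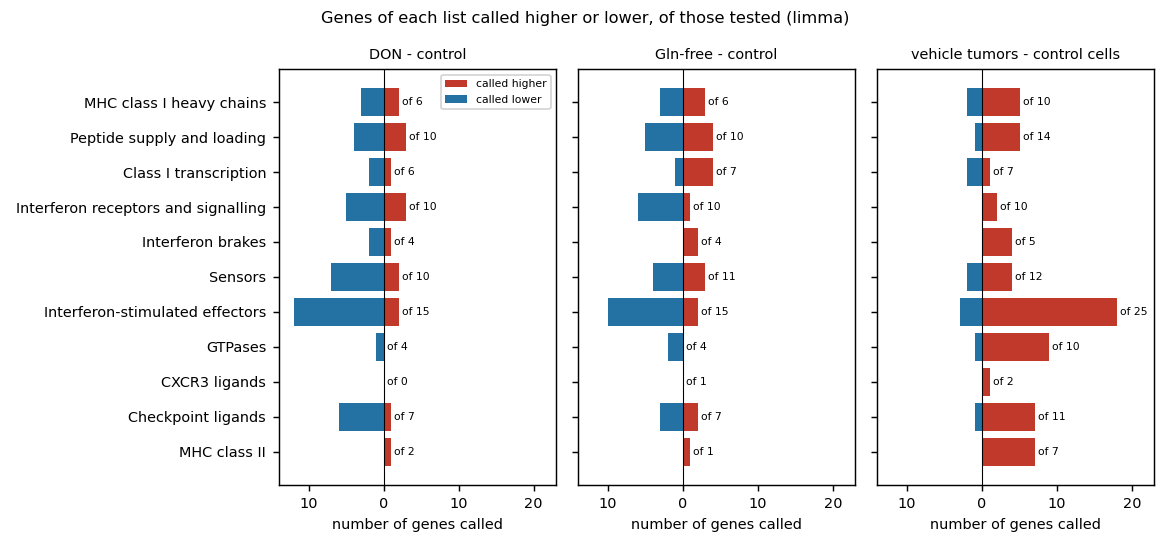
Number of genes of each list called higher (right of 0) or lower (left of 0) in DON cells, Gln-free cells and vehicle tumors against control cells, with the number tested beside each bar. Interferon-stimulated effectors extend to the left in both culture panels, with 12 of 15 and 10 of 15 lower, and to the right in the tumor panel, with 18 of 25 higher, 10 of them genes that passed the filter only through the tumors.

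Tumor levels were compared with those of cultured cells by fitting vehicle tumors and control cells on recovered reads scaled together. Of 9 members, 6 were called higher and 0 lower, beside 33% and 26.7% of 15009 genes, and 3 were not called. Of the 6, Tap1, Nlrc5 and Ifit1 passed the filter only through the tumors, so their direction was given by the filter. Fewer cells of a type and less RNA per cell cannot be told apart in these bulk samples, nor can tumor cells and host cells. The counting of reads may also differ between cultures and tumors. Among values of 1 to 20 reads, 69.6% to 72.0% were even in control cells and 41.9% to 44.0% in vehicle tumors. The part of this in the changes was not tested.

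B2m was at 515 ± 91.9 TPM in vehicle tumors and 241 ± 23.7 in control cells (log2 fold change 0.78, interval 0.48 to 1.08, adjusted p = 0.000614). Irf7 rose from 1.01 ± 0.0485 to 5.18 ± 2.23 TPM (1.94, interval 1.19 to 2.69, adjusted p = 0.000695) and Cd274 from 1.45 ± 0.414 to 4.82 ± 1.38 TPM (1.41, interval 0.74 to 2.08, adjusted p = 0.00246). In each of these 3 genes all vehicle tumors lay above all control cells, and the share of all genes that did so is not given here. Tap1 was at 3.51 ± 2.59 TPM in tumors (4.96, interval 3.82 to 6.11), Ifit1 at 3.26 ± 2.04 (4.96, interval 2.86 to 7.06) and Nlrc5 at 0.702 ± 0.425 (3.17, interval 2.06 to 4.28), all far above the near-zero cultures. H2-K1 (176 ± 52.0 TPM; -0.12, interval -0.51 to 0.27), H2-D1 (167 ± 55.5 TPM; 0.07, interval -0.40 to 0.54) and Irf1 (40.5 ± 14.8 TPM; 0.05, interval -0.42 to 0.52) were not called. The log2 fold changes come from reads scaled by size factors and TPM from shares of each library, so they need not match in size or sign. H2-K1 was at 151 ± 2.72 TPM in control cells, below its tumor mean, though its log2 fold change was below 0. With quantile normalization, which moved the median of all genes by -0.23, the calls of Nlrc5, Cd274 and Irf7 were lost, and 42.8% of called genes were higher in place of 55.3%.

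The markers of host cells moved with this comparison. Macrophage markers summed to 2082 to 2806 in control cells, nearly all from Mrc1, and to 6065 to 8226 in vehicle tumors, where C1qa, C1qb and C1qc were all present. Fibroblast markers summed to 478 to 646 in control cells and 37996 to 80905 in vehicle tumors. T cell markers summed to 87.0 to 116 in control cells and 52.9 to 98.3 in vehicle tumors, with Cd3e, Cd3d, Cd3g and Cd8b1 at 0 in all control cells. Of 7 tested MHC class II genes 6 passed the filter only through the tumors, so that their direction was given by it, among them Cd74 with a log2 fold change of 10.5. Of 25 tested interferon-stimulated effectors 18 were called higher and 3 lower, beside 33% and 26.7% of all genes, but 10 of the 18 passed the filter only through the tumors. Over the other 15 effectors 8 were called higher and 3 lower, including Ifitm3 (4.04, adjusted p = 5.24e-06) and Xaf1 (3.90, adjusted p = 2.45e-05). The part of host cells in the rise of the members was not tested.

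**Figure D4:**
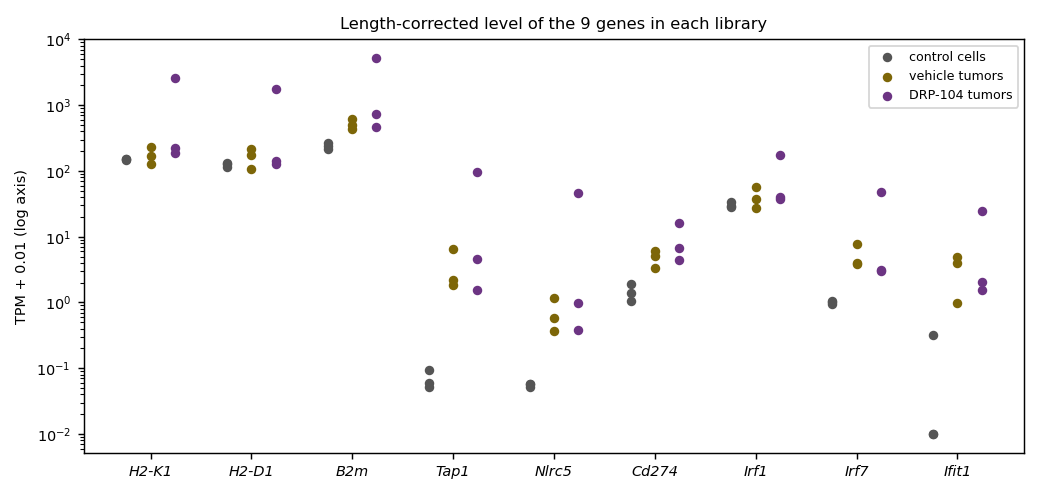
TPM of each gene, plus 0.01, on a log axis in the 3 control cell libraries, 3 vehicle tumors and 3 DRP-104 tumors. Tap1, Nlrc5 and Ifit1 are lower in every cell library than in every tumor, H2-K1 and H2-D1 of vehicle tumors lie around the cell values, and 1 DRP-104 tumor is the highest point for every gene.

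DRP-104 was compared with vehicle to ask whether the prodrug changes the genes in tumors. None of the 9 members was called by limma, beside 0% of all 15454 genes tested. At an unadjusted p under 0.05 there were 775 genes and 0 members, edgeR called 0 genes and DESeq2 56. The log2 fold changes of the members ran from 0.70 to 2.09 (median 1.05, beside -0.01 for all genes), with adjusted p-values of 0.916 to 0.939 (limma). No member separated the groups, whereas 10.6% of all genes did.

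The size of these values rested mostly on a single library. H2-K1 was at 3775, 2659 and 38553 in DRP-104 tumors and at 3207, 2581 and 1912 in vehicle tumors (1.54, interval -0.46 to 3.54). H2-D1 was at 2731, 2059 and 29243 against 3398, 2972 and 1821 (1.05, interval -0.97 to 3.08), and B2m at 5751, 3070 and 34993 against 3925, 2999 and 3431 (1.31, interval -0.42 to 3.04). Tumor 3 exceeded the next highest of the other 5 tumors by 10.2 times for H2-K1, 8.61 times for H2-D1 and 6.08 times for B2m.

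The same held for the peptide transporter, the transactivator and the ligand. Tap1 was at 164, 46.1 and 2984 in DRP-104 tumors against 189, 58.4 and 68.3 with vehicle (1.63, interval -1.39 to 4.65). Nlrc5 was at 62.0, 19.6 and 2519 against 60.8, 31.5 and 20.2 (2.09, interval -1.43 to 5.61). Cd274 was at 226, 123 and 467 against 138, 96.5 and 175 (0.82, interval -0.26 to 1.91). Tumor 3 exceeded the next highest tumor by 40.6 times for Nlrc5, the most of any member, and by 2.07 times for Cd274, the least.

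The interferon factors and Ifit1 followed. Irf1 was at 791, 606 and 2904 against 899, 475 and 638 (0.78, interval -0.46 to 2.02). Irf7 was at 61.0, 53.1 and 830 against 129, 68.7 and 71.2 (0.70, interval -1.50 to 2.89), and Ifit1 at 50.3, 31.2 and 517 against 95.6, 20.4 and 84.7 (0.76, interval -1.63 to 3.14). For Irf7, DRP-104 tumors 1 and 2 were below all vehicle tumors. Without tumor 3 the log2 fold changes were 0.34 for H2-K1, -0.15 for H2-D1, 0.29 for B2m, -0.06 for Tap1, 0.04 for Nlrc5, 0.33 for Cd274, 0.09 for Irf1, -0.58 for Irf7 and -0.47 for Ifit1, and again 0 were called.

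Tumor 3 was the highest tumor for 9 of 9 members (median ratio to the next tumor 6.45) and for 4244 of all 15454 genes (median ratio 0.806). It was also highest for 32 of 32 interferon-stimulated effectors (median ratio 4.50), 13 of 13 interferon-inducible GTPases (14.5), 3 of 3 CXCR3 ligands (33.4) and 7 of 7 MHC class II genes (4.88). T cell markers stood with them. Their sum was 1462 in tumor 3 and 41.5 to 98.3 in the other 5 tumors, with 511 reads of Cd8a against at most 2 elsewhere. The NK and cytotoxic markers summed to 752 against 8.36 to 108, mostly from Nkg7 (311 reads) and Gzma (304). The NK markers Ncr1 and Klrb1c were not highest in tumor 3. Ncr1 had 1 read there and 6 in vehicle tumor 1, and Klrb1c had 14 there and 16 in DRP-104 tumor 1. Ifng had 7 reads in tumor 3 and 0 in the other tumors, and Cxcl9 had 3242 reads against at most 89. Tumor 3 was also highest for 3 of 4 dendritic cell markers (median ratio 5.84), 3 of 4 leukocyte markers (2.39) and 3 of 3 B cell markers (1.71). Macrophage markers (median ratio 1.01) and neutrophil markers (0.817) did not stand apart. The fibroblast markers of tumor 3 were below the highest other tumor for 6 of 6 genes (median ratio 0.215). Low fibroblast markers were not particular to tumor 3. Their sums were 18045 to 30976 over the DRP-104 tumors and 37996 to 80905 over the vehicle tumors. No fibroblast gene was called, and the FPKM columns described below did not repeat this order. The part of these cells in the levels of the members was not tested.

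The FPKM table gave the opposite sign. Its 6 columns carry treatment names but could not be matched to these tumors, since the same-named columns were not alike in their deviation from the group mean (Pearson's r at most 0.278 over 11001 genes), and no column stood apart in these genes as tumor 3 did. All 9 members had values below 0, from -0.03 for Cd274 to -0.93 for Irf7, and 0 were called, beside 0% of 14183 genes. The smallest adjusted p in the table was 0.152, and 1079 genes had an unadjusted p under 0.05. Irf7 was at 2.37, 2.40 and 1.91 FPKM with DRP-104 and at 4.87, 6.16 and 4.44 with vehicle (log2 fold change -0.93, interval -1.30 to -0.55, adjusted p = 0.254). Ifit1 was at 1.18, 0.965 and 0.467 against 1.98, 2.08 and 2.06 (-0.72, interval -1.14 to -0.30, adjusted p = 0.451). These were the 2 members whose DRP-104 columns all lay below the vehicle columns, a pattern that 9.65% of all genes tested shared.

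The class I genes overlapped between the FPKM groups. H2-K1 was at 168, 96.3 and 109 FPKM with DRP-104 and 134, 135 and 139 with vehicle (-0.17, interval -0.64 to 0.31), and B2m at 84.4, 255 and 227 against 319, 276 and 254 (-0.73, interval -1.64 to 0.19). Of 26 tested interferon-stimulated effectors 21 had values below 0 (median -0.37, beside -0.02 for all genes), and 12 of 12 GTPases did (median -0.40), with none called. The summed FPKM of 13 GTPases was 22, 30.5 and 23.5 with DRP-104 and 48.3, 41.1 and 34.7 with vehicle, without overlap. The sums of the effectors, CXCR3 ligands, checkpoint ligands and B cell markers were also lower without overlap. The sum of the interferon brakes was higher without overlap (121 to 193 against 103 to 120). How often a list sum separates 3 columns from 3 by chance was not tested. T cell markers summed to 1.48 to 4.67 FPKM with DRP-104 and 3.01 to 4.38 with vehicle, so their ranges overlapped, and acinar markers to 518 to 2987 against 136 to 764. Fibroblast markers summed to 969 to 2928 FPKM with DRP-104 and 725 to 1170 with vehicle. Their ranges overlapped, and they were not lower with DRP-104 as in the normalized counts.

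**Figure D5:**
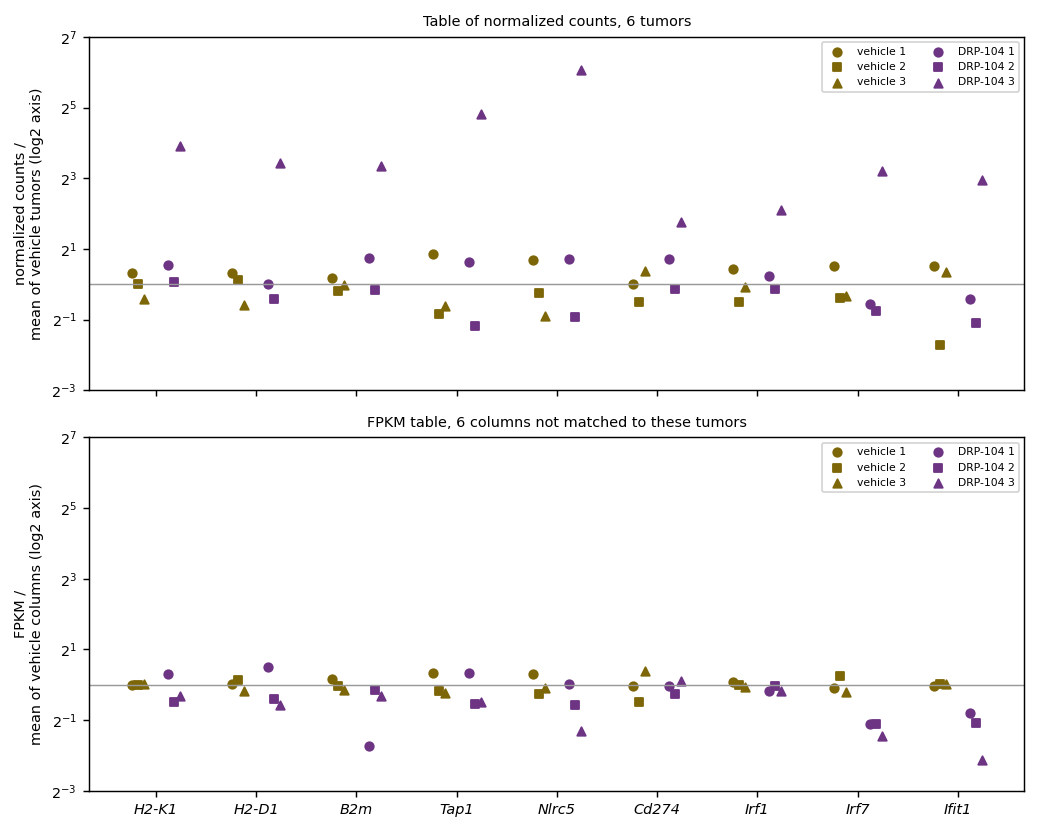
Level of each gene in each tumor divided by the mean of the vehicle tumors, on a log2 axis, for the normalized counts (top) and for the FPKM columns (bottom). Symbols give the replicate number. DRP-104 tumor 3 is the highest point for all 9 genes in the top panel, while in the bottom panel Irf7 and Ifit1 are below all vehicle columns.

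The effect of DRP-104 in tumors was set against that of its parent DON in cells by an interaction term, although dose, time and setting differed. The difference was called for Irf1 (2.89, interval 1.59 to 4.2, adjusted p = 0.0025) and Cd274 (2.21, interval 0.84 to 3.57, adjusted p = 0.0167), so 2 of 9 members were higher and 0 lower, beside 19.1% and 14% of 15070 genes. Without tumor 3, Irf1 (2.21, adjusted p = 8.89e-05) and Cd274 (1.72, adjusted p = 0.0253) were called and H2-K1 was called as well (0.85, adjusted p = 0.0178). Tap1, at 0 in the DON cells, gave 3.71 (interval 0.43 to 7, adjusted p = 0.0785).

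Against Gln withdrawal, Irf1 was called (2.32, interval 1.02 to 3.62, adjusted p = 0.00871), 1 of 9 members higher and 0 lower, beside 18.6% and 18.1% of 14979 genes. Without tumor 3, Irf1 (1.63, adjusted p = 0.00075) and B2m (0.90, adjusted p = 0.0173) were higher and Nlrc5, at a mean under the filter in control cells, was lower (-2.78, adjusted p = 0.00927). Cd274, which did not pass the test without Gln in culture, gave 0.77 (interval -0.45 to 2.00). Among the interferon-stimulated effectors, 12 of 31 tested were higher in the contrast with DON and 8 of 31 in the contrast with Gln withdrawal, beside 19.1% and 18.6% of all genes. Without tumor 3 these were 11 of 25 and 6 of 25, with 0 and 1 lower. The effectors no longer tested had passed the filter only through tumor 3. The share of all genes called without tumor 3 is not given here, so the calls without it, of effectors and of members, are descriptions.

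The genes whose pattern was most like that of a member differed between cells and tumors. Over the 9 culture libraries, the genes with the smallest root mean square difference from H2-K1 in centered log2 value were Anxa3 (0.0675), Sufu (0.0702) and Cnot11 (0.0729), and those nearest Irf7 were Pet100 (0.116), Hspa8 (0.119) and Nelfe (0.126). Over the 6 tumors, the nearest to H2-K1 were Oasl2 (0.252), H2-D1 (0.256) and Gbp7 (0.291), and the nearest to Irf7 were Tap2 (0.218), Il18 (0.242) and H2-D1 (0.317). The search covered 10431 genes in the cultures and 10928 in the tumors, where tumor 3 is 1 of the 6 libraries.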

How the data were processed

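RNA-seq of 15 libraries in 5 groups of 3 was analyzed. Alignment with HISAT2 and testing with DESeq2 were done by the authors' sequencing provider. The submitters' processing notes also name CASAVA, STAR 2.5 and GRCm39, while 72.2% of 34490 genes in the FPKM table have the exact coordinates of GRCm38. The counting tool and its use of strand are not given in the sources used here, so reads of overlapping or antisense genes cannot be told apart.

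The deposited signal is a normalized count, each gene's count divided by 1 size factor per library within each of 3 tables. The control columns of both culture tables bear a vehicle name and were assigned from the table names, and their numbers only name columns. The authors' FPKM table, which also gives gene lengths, holds tumors only. Columns of the authors' fold changes and p-values in these tables were not used, and other FPKM tables with the same values or group means were not used here. Dividing by the worth of 1 read (tolerance 0.0051) recovered whole reads for at least 99.966% of values. Control reads were the same in both culture tables for 55291 of 55291 genes. Even counts made up 69.6% to 72.7% of values of 1 to 20 reads in the cultures and 41.9% to 46.5% in the tumors. TPM was computed from recovered reads for 30410 genes with a length, which hold at least 94.4% of reads.

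As these values are not counts, differences were tested with limma 3.58.1 in R 4.3.3 (moderated linear model with a mean-variance trend), on log2(value + 1) with a mean of at least 10, or log2(FPKM + 1) with a mean FPKM of at least 0.5. This understates fold changes of low genes. Alternatives were other pseudocounts, filters, a threshold of 0.01, TMM and quantile scaling, array weights, edgeR 4.0.16 and DESeq2 1.42.0 on recovered reads, the FPKM table and leaving out each library. The limma fit was first tested on simulated data for DON against control and for DRP-104 against vehicle, and the other fits were not. The members and gene lists were chosen with earlier results of these data known. Some details of the line and some list genes are not reported here. Genes named beside the members are up to 3 per list and comparison, those with the largest change among called genes with a mean of at least 100, and the 3 genes most like H2-K1 and Irf7. Intervals cover the spread between libraries, and reads without molecular identifiers are not independent molecules. Python 3.11, numpy 2.4.6, pandas 2.3.3 and matplotlib 3.10.9 were used for tables and plots.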

Additional observations from a re-analysis of the deposited data

Results flagged for a closer look

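The difference in response between tumors and cells was called for Irf1 in both contrasts and for Cd274 in the contrast with DON. The DRP-104 effect in tumors minus the DON effect in cells was 2.21 for Cd274 and 2.89 for Irf1 on the log2 scale, and the DRP-104 effect minus the Gln-free effect was 2.32 for Irf1 (limma interaction contrasts). In the contrast with DON 2 of 9 members were called higher, beside 19.1% of 15070 genes. In the contrast with Gln withdrawal 1 of 9 was called higher, beside 18.6% of 14979 genes. Such calls are common over all genes, so these counts say little about the members as a set. In cells Cd274 fell with DON (-1.38) and Irf1 fell with DON (-2.11) and without Gln (-1.54), while in tumors neither passed the test (0.82 and 0.78). In the FPKM table the tumor values were -0.03 for Cd274 and -0.13 for Irf1. Without DRP-104 tumor 3 the contrasts were 1.72 for Cd274 and 2.21 for Irf1 with DON, and 1.63 for Irf1 with Gln withdrawal. Dose, time and setting differ between the arms and cannot be told apart.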

How the results depend on the processing

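Of the single-gene values, 921 kept their direction and side of the threshold under an alternative, 38 changed sign, 8 lost a call and 10 gained one. In cultures, the number of members called stayed within 1.5 times. Cd274 without Gln ran from -0.14 to 0.21 when 1 library was left out, and H2-D1 in DON against Gln-free cells from -0.029 to 0.035, with 0.086 under quantile normalization, 0.0054 under TMM and 0.017 with edgeR. Nlrc5 in that comparison ran from -3.42 to -1.45, and edgeR and DESeq2 gave -2.14.

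For DRP-104 against vehicle, the FPKM table turned all 9 members: H2-K1 to -0.17, H2-D1 to -0.15, B2m to -0.73, Tap1 to -0.15, Nlrc5 to -0.24, Cd274 to -0.03, Irf1 to -0.13, Irf7 to -0.93 and Ifit1 to -0.72; the cause was not tested. Leaving out 1 tumor gave -0.15 to 1.76 for H2-D1, -0.064 to 2.93 for Tap1, -0.58 to 1.39 for Irf7 and -0.47 to 1.54 for Ifit1, the low ends without DRP-104 tumor 3. DESeq2 called 2 other list genes, and its adjusted p was not given for H2-K1, H2-D1, Nlrc5, Irf7 and Ifit1.

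For vehicle tumors against control cells, quantile normalization left 3 members called and turned H2-K1 to 0.10, and a mean of at least 50 gave 43 other list genes called in place of 69. Leaving out 1 library gave -0.30 to 0.080 for H2-K1, -0.12 to 0.34 for H2-D1 and -0.18 to 0.27 for Irf1. Quantile normalization moved the median of all genes by 0.10 in DON against control, by -0.23 in this comparison and by -0.11 in the contrast of tumors with DON.

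In that contrast a threshold of 0.01 left 1 member and leaving out 1 library gave 2 to 4, with Nlrc5 from -0.023 to 3.44, Irf7 from -0.75 to 1.22 and Ifit1 from -0.83 to 1.20. In the contrast with Gln withdrawal the members were 1 to 3 when 1 library was left out and 2 with array weights, and other list genes 25 to 50, with 19 at a threshold of 0.01. H2-K1 ran from -0.019 to 1.91 and Nlrc5 from -2.78 to 0.69, with 0.26 at a pseudocount of 10.

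Same-numbered tumors did not deviate together (r = -0.42, 0.05 and -0.45 over 12198 genes), nor did DON and Gln-free cultures (-0.05, -0.01 and 0.18). The numbers were therefore not used as pairs in the main fits. Differently numbered tumors ran from -0.43 to 0.57, so this check cannot exclude a pairing. With the replicate number as a block, 0 members were called for DRP-104 against vehicle and 6 for DON against Gln-free cells. No paired analysis was possible in comparisons with control cells because the control columns bear a vehicle name and could not be matched to single numbered control libraries. Low reads limit Tap1, Nlrc5 and Ifit1 in cultures, and Irf7 in Gln-free cells, where it had 10 to 12 reads per library.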
